A study of Rattus norvegicus with 9 samples.

Results

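The circadian clock genes Per1, Per2, Per3, Cry1, Cry2, Clock, Bmal1, Nr1d1, Nr1d2 and Dbp were followed in primary rat nucleus pulposus cells, the cells of the gel-like centre of the intervertebral disc. The members were chosen by name, as the genes of the deposited count table whose identifier equals 1 of these symbols. All 10 were found among the 22324 genes of the table, and all 10 were among the 14956 genes with enough counts to be tested. Poly(A) RNA was sequenced in 9 libraries, 3 in each of 3 groups. The genotype label of every library is WT. NC is the group of wildtype cells with no treatment in its titles. SEN holds cells made senescent with doxorubicin, a topoisomerase poison, given at 200 nM over 24 h and followed by 6 days in fresh medium. BNPMT holds cells given the same induction and an intervention in it that the labels name BNPMT, with no expansion of the name and no dose. The doxorubicin protocol stands on the NC libraries too, and NC was read as untreated from its titles and from the series' design text. The labels name no hour of harvest and no step that aligns the clocks of the cells, and they do not say whether the libraries of a group are separate cultures. The p-values then reflect only how far these libraries differ, which may be technical.

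In the mammalian clock the CLOCK and BMAL1 proteins form a dimer that binds E-boxes and activates the Per and Cry genes, whose proteins feed back and inhibit the dimer. The nuclear receptors REV-ERB alpha (Nr1d1) and REV-ERB beta (Nr1d2) are activated by the same dimer and repress Bmal1 through response elements they share with the activating ROR receptors. Dbp is a transcription factor driven directly by CLOCK and BMAL1, and intervertebral disc cells are known to carry a clock of this kind. RNA taken at an unstated hour gives the level of each gene then and cannot give the phase or amplitude of a rhythm.

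The RefSeq promoter table for the rat build GRCr8 held 11 windows for 9 of the 10 members, and the 250 bases before each annotated start were searched. The search used both strands and the letters CACGTG (E-box), CACGTT (E'-box), TTATGTAA (D-box, the element of DBP and its relatives), TAGGTCA (core of the REV-ERB and ROR element) and TGACGTCA (CRE). No matches overlapped each other. The 5 windows with a match are shown because they carry the letters of the clock's own loops, with the matched bases in capitals and the rest in lower case, 5′ to 3′ along the gene. The Per2 window lies at chr9:99496994-99497243 and the Cry2 window at chr3:98860438-98860687, both on the minus strand. The Bmal1 window lies at chr1:176766078-176766327 on the plus strand. The Nr1d1 windows lie at chr10:84231813-84232062 and chr10:84229455-84229704 on the minus strand and precede 2 annotated starts.
Per2: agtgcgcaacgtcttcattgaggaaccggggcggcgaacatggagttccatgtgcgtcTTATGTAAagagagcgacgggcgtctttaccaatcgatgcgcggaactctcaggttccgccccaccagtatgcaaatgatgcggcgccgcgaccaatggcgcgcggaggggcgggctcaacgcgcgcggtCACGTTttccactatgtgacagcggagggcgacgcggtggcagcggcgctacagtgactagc
Cry2: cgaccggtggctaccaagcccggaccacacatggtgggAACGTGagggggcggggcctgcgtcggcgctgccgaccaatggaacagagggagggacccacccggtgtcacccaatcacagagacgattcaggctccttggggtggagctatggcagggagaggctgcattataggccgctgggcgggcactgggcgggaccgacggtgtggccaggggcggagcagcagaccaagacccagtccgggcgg
Bmal1: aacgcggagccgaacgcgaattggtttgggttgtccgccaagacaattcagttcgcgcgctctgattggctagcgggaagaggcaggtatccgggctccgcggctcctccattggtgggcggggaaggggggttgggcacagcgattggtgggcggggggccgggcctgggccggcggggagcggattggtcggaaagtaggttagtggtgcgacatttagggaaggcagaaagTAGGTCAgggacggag
Nr1d1 first window: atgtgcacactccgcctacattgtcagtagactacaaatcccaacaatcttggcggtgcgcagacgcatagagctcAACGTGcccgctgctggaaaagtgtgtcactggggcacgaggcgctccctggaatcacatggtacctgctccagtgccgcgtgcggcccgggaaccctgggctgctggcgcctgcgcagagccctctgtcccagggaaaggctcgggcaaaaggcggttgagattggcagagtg
Nr1d1 second window: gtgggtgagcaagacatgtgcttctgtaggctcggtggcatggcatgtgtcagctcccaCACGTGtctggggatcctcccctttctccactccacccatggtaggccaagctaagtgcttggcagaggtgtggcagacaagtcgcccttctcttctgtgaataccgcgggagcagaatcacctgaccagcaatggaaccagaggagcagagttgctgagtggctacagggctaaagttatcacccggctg

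The Per2 window held a D-box at 192 to 185 bases and an E'-box at 62 to 57 bases before the start. An E'-box on the opposite strand, printed as AACGTG, stood at 212 to 207 bases before the start of Cry2 and at 174 to 169 bases before the first start of Nr1d1. The second Nr1d1 window held an E-box at 191 to 186 bases. The Bmal1 window held the REV-ERB and ROR core at 16 to 10 bases before the start. Over all 33469 windows of 250 bases in the table, 5.59% held the E-box, 4.07% the E'-box, 0.828% the D-box, 2.26% the REV-ERB and ROR core and 1.59% the CRE. None of these letters was found in the windows of Per1, Per3, Clock, Nr1d2 and Dbp. A match describes the letters only and shows neither binding nor use.

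The NC libraries held 34514440 to 41873790 counts, the SEN libraries 31206834 to 38391586 and the BNPMT libraries 35094282 to 41971877. A member was covered by 175 to 3279 counts in a library, far above the 3 counts used as a floor, which are worth 0.0715 to 0.0961 CPM. CPM scales each count to the library's total. Log2 changes were scaled by TMM factors, which set the typical gene near 0, with average factors of 1.097 for NC, 0.802 for SEN and 1.136 for BNPMT. Scaled by total counts alone, the median over the tested genes was a log2 change of -0.46 in SEN against NC and 0.52 in BNPMT against SEN, so the members' changes between SEN and either other group are given on both scales. A change was called when edgeR's quasi-likelihood test gave a Benjamini-Hochberg adjusted p below 0.05. By that rule 76.1% of all tested genes changed in SEN against NC, 80.6% in BNPMT against SEN and 52.8% in BNPMT against NC. The cell labels could be checked only in part. The summed level of 12 nucleus pulposus and notochord markers, mostly Col2a1 and Acan, was 5470 to 5740 CPM for NC, 7340 to 7470 for SEN and 2600 to 2820 for BNPMT. Other genes of this list did not follow the sum: Pax1 was at 135 ± 5.12 CPM (SD, n = 3) in NC, 52.7 ± 1.45 in SEN and 149 ± 4.4 in BNPMT, and of 10 tested, 6 were higher and 4 lower in SEN against NC. The notochord factor Tbxt was at a mean of 0.0932 CPM in NC, 0.0464 in SEN and 0.0429 in BNPMT, around the floor. Annulus and tendon markers, dominated by type I collagen, summed to 37800 to 39300 CPM for NC, 38100 to 38400 for SEN and 16700 to 19400 for BNPMT. Lum, of the same list, was at 465 ± 28.4, 845 ± 93.3 and 471 ± 23.5 CPM, so its course differed from that of the sum. Smooth muscle markers summed to 4460 to 4500 CPM for NC, 1330 to 1500 for SEN and 2550 to 2800 for BNPMT. Endothelial markers summed to 1.04 to 1.55, 4.95 to 5.38 and 0.981 to 1.51 CPM in NC, SEN and BNPMT. Cdh5 was at or under the floor in each group. The sum in SEN was mostly Pecam1, at a mean of 0.0165 CPM in NC, 4.04 in SEN and 0.0254 in BNPMT. Tek was at 0.962, 0.441 and 0.586 CPM, and of 4 tested, 2 were higher and 2 not called in SEN against NC. The 3 leukocyte markers analysed here (Cd68, Csf1r, Itgam) summed to 0.191 to 0.84, 25.3 to 29.1 and 0.478 to 0.715 CPM. Most of this sum was Cd68, at a mean of 0.464, 22.6 and 0.527 CPM. The 2 erythroid markers were at or under the floor in each group. The part of these shifts in the clock gene results was not tested. In bulk RNA, fewer cells with a transcript and less of it per cell cannot be told apart.

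In senescent cells most clock transcripts were higher relative to the typical gene. On the TMM scale 9 of the 10 members rose in SEN against NC, led by Nr1d2, Nr1d1 and Cry1, and Cry2 fell; the rise of Per1 turned into a fall on the total-count scale. Against all tested genes, 37.6% rose and 38.5% fell in this comparison. On the total-count scale 6 members rose, 2 fell and 2 were not called, where 24.5% of all genes rose and 56.9% fell. The median log2 change of the members was 1.03 on the TMM scale and 0.58 on the total-count scale, with -0.01 and -0.46 over all genes. With BNPMT, 8 of the 10 members fell against SEN on both scales and none rose on the TMM scale, where 40.7% of all genes rose and 39.9% fell. On the total-count scale Cry2 and Dbp rose, where 57.3% of all genes rose and 25.8% fell. The members' median in BNPMT against SEN was -1.42 on the TMM scale and -0.91 on the total-count scale. Both comparisons use the same SEN libraries, so a high or low SEN value moves them in opposite directions.

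**Figure D1:**
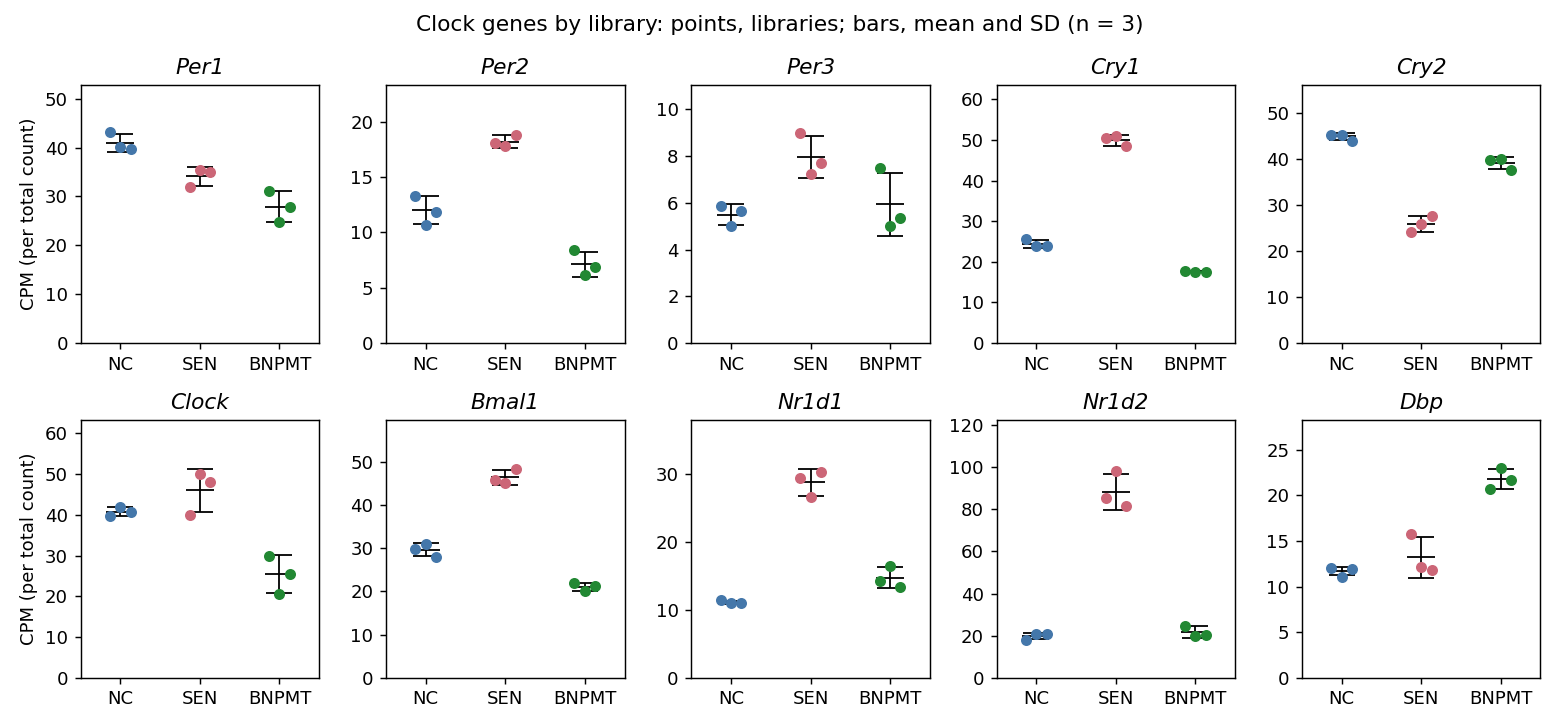
Level of each clock gene in CPM (vertical axes, from 0) in the 3 groups; points are libraries and bars give the mean and SD of 3 libraries. Per2, Cry1, Bmal1, Nr1d1 and Nr1d2 stand highest in SEN with no overlap with NC or BNPMT. Cry2 is lowest in SEN, and Dbp is highest in BNPMT.

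Clock and Bmal1 encode the activating dimer. Bmal1 was at 29.9, 30.9 and 28 CPM in NC libraries 1 to 3, at 45.7, 45.0 and 48.4 in SEN and at 21.9, 20.1 and 21.2 in BNPMT. The 3 groups did not overlap, with SEN highest and BNPMT lowest. Bmal1 rose by 1.10 ± 0.06 (SE) on the log2 scale in SEN against NC (adjusted p = 2.27e-09), and by 0.65 on the total-count scale. With BNPMT it fell by 1.64 ± 0.07 against SEN (adjusted p = 3.95e-11), and by 1.14 on the total-count scale. Clock was at 39.8, 41.9 and 40.6 CPM in NC, at 40.0, 50 and 48.0 in SEN and at 30.0, 20.6 and 25.5 in BNPMT. The SEN libraries overlapped NC, SEN 1 lying within the NC range, while the BNPMT libraries lay below both groups. On the TMM scale Clock rose by 0.62 ± 0.11 in SEN against NC (adjusted p = 0.000121), but its 0.17 on the total-count scale was not called (adjusted p = 0.174). Clock fell by 1.36 ± 0.11 in BNPMT against SEN (adjusted p = 6.03e-08; -0.85 on the total-count scale).

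The period genes encode the inhibitors that enter the nucleus with the cryptochromes. Per2 was at 13.3, 10.7 and 11.8 CPM in NC, at 18.1, 17.8 and 18.8 in SEN and at 8.37, 6.15 and 6.84 in BNPMT. No library of 1 group reached into another, with SEN highest and BNPMT lowest. Per2 rose by 1.06 ± 0.11 on the log2 scale in SEN against NC (adjusted p = 6.07e-07; 0.61 on the total-count scale). With BNPMT it fell by 1.85 ± 0.11 against SEN (adjusted p = 2.45e-09; -1.35 on the total-count scale). Per3, the period gene whose loss disturbs the central clock least, was at 5.85, 5.01 and 5.64 CPM in NC, at 8.99, 7.24 and 7.72 in SEN and at 7.49, 4.99 and 5.36 in BNPMT. SEN lay above NC, whereas BNPMT 1 lay inside the SEN range and the other 2 BNPMT libraries lay in or just below the NC range. Per3 rose by 0.99 ± 0.15 in SEN against NC (adjusted p = 3.51e-05; 0.54 on the total-count scale). Against SEN it fell by 0.93 ± 0.15 with BNPMT (adjusted p = 5.48e-05; -0.42 on the total-count scale).

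Per1, which responds acutely to light, cAMP and glucocorticoid signals, went a different way from Per2. It was at 43.1, 40.1 and 39.8 CPM in NC, at 32.0, 35.5 and 34.9 in SEN and at 31.2, 24.7 and 27.9 in BNPMT. The CPM of the groups did not overlap and stepped down from NC to SEN to BNPMT. Relative to the typical gene Per1 was higher in SEN by 0.19 ± 0.08 (adjusted p = 0.0428), and on the total-count scale it was lower (log2 -0.27, adjusted p = 0.00933). The direction in SEN thus depends on the scaling, and the TMM call was also lost without any 1 of NC 2, NC 3, SEN 2, SEN 3 or BNPMT 3 (adjusted p = 0.0559 to 0.129). With BNPMT the fall against SEN was called on both scales (log2 -0.79 ± 0.08, adjusted p = 5.44e-07; -0.29 on the total-count scale).

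The cryptochromes Cry1 and Cry2, the other inhibitors of the dimer, moved in opposite directions in SEN. Cry1 was at 25.5, 24.0 and 23.9 CPM in NC, at 50.6, 50.9 and 48.4 in SEN and at 17.8, 17.4 and 17.5 in BNPMT. Each group kept to a narrow range of its own, and SEN was highest. Cry1 rose by 1.48 ± 0.06 in SEN against NC (adjusted p = 5.44e-11; 1.03 on the total-count scale). It fell by 2.01 ± 0.06 in BNPMT against SEN (adjusted p = 2.69e-12; -1.51 on the total-count scale). Cry2 was at 45.2, 45.3 and 44.0 CPM in NC, at 24.1, 25.8 and 27.6 in SEN and at 39.8, 40.0 and 37.5 in BNPMT. NC was highest, SEN lowest and BNPMT between them, with no overlap. Cry2 fell by 0.35 ± 0.07 in SEN against NC (adjusted p = 0.000263; -0.80 on the total-count scale). Against SEN the TMM-scaled change of Cry2 with BNPMT was 0.10 ± 0.07 and was not called (adjusted p = 0.184), while the 0.60 on the total-count scale was (adjusted p = 1.22e-06).

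Nr1d1 and Nr1d2 encode the REV-ERB repressors of Bmal1. Nr1d2 was at 18.0, 20.7 and 20.7 CPM in NC, at 85.4, 98.2 and 81.4 in SEN and at 24.7, 19.9 and 20.3 in BNPMT. All SEN libraries stood far above the other groups, which overlapped each other. Nr1d2 rose by 2.61 ± 0.10 in SEN against NC (adjusted p = 1.8e-11; 2.16 on the total-count scale), more than any other member on both scales. It fell by 2.53 ± 0.10 in BNPMT against SEN (adjusted p = 1.99e-11; -2.03 on the total-count scale). Nr1d1 was at 11.4, 11.0 and 11.0 CPM in NC, at 29.3, 26.5 and 30.2 in SEN and at 14.2, 16.4 and 13.4 in BNPMT. SEN was highest and BNPMT lay above NC, with no overlap. Nr1d1 rose by 1.82 ± 0.09 in SEN against NC (adjusted p = 4.28e-10; 1.37 on the total-count scale). With BNPMT it fell by 1.47 ± 0.09 against SEN (adjusted p = 2.61e-09; -0.97 on the total-count scale).

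In the RefSeq table Nr1d1 overlaps Thra, a thyroid hormone receptor gene on the opposite strand. Since the strand setting of the counting is not given in the sources used here, their reads may be shared. Thra was at 71.3 ± 1.09 CPM (SD, n = 3) in NC, 81.6 ± 6.19 in SEN and 59.5 ± 2.18 in BNPMT. Its TMM-scaled log2 change was 0.65 ± 0.06 in SEN against NC (adjusted p = 4.37e-07) and -0.96 ± 0.06 in BNPMT against SEN (adjusted p = 6.77e-09), in the same directions as Nr1d1. In BNPMT against NC Thra fell by 0.31 ± 0.06 (adjusted p = 0.00103), where Nr1d1 rose.

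Dbp encodes a PAR bZIP activator whose rhythm is a direct output of the dimer. Its level was 12, 11.1 and 11.9 CPM in NC, 15.8, 12.1 and 11.8 in SEN, against 20.7, 23.0 and 21.7 in BNPMT. SEN overlapped NC, with SEN 3 inside the NC range and SEN 1 well above it, and all BNPMT libraries lay above both groups. Dbp rose by 0.64 ± 0.11 on the TMM scale in SEN against NC (adjusted p = 0.00013), and its 0.19 on the total-count scale was not called (adjusted p = 0.125). In BNPMT against SEN the change of Dbp was 0.21 ± 0.11 and not called (adjusted p = 0.0836), whereas the 0.72 on the total-count scale was (adjusted p = 2.3e-05). Without SEN 1 the TMM-scaled change of Dbp was 0.37 (adjusted p = 0.0021), and without BNPMT 1 it was 0.26 (adjusted p = 0.046).

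**Figure D2:**
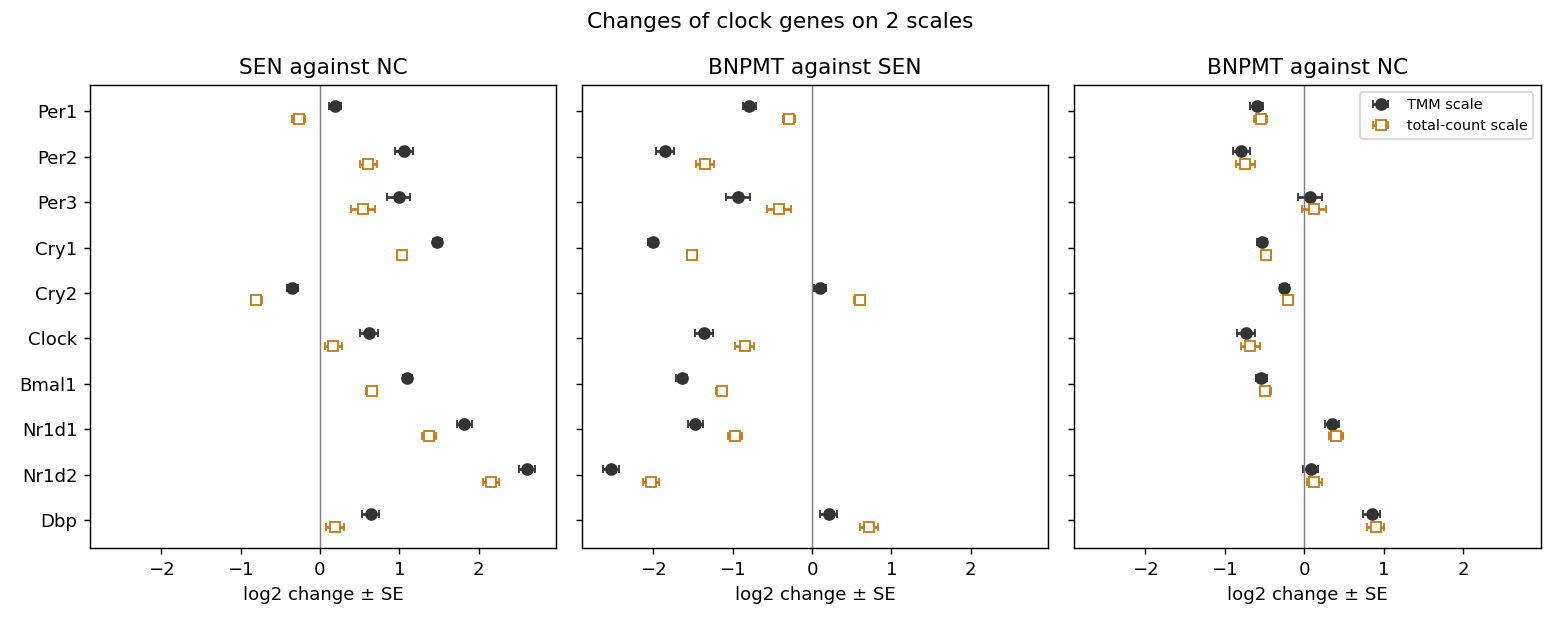
Log2 change of each clock gene with its SE (horizontal axes) in the 3 comparisons; filled circles are TMM-scaled and open squares are scaled by total counts. The total-count values lie left of the TMM values in SEN against NC and right of them in BNPMT against SEN, so Per1 crosses 0 in the first, while the scales nearly coincide in BNPMT against NC.

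The comparison of BNPMT with NC asks how far treated cells differed from untreated ones, and its scaling matters least, since the median of all genes was 0 on the TMM scale and 0.06 on the total-count scale. Here 6 members were lower, 2 were higher and 2 were not called on both scales. Over all genes, 26.3% rose and 26.5% fell on the TMM scale, and 30.2% rose and 22.5% fell on the total-count scale. The members' median was -0.39 on the TMM scale. The lower genes were Per2, by 0.79 ± 0.11 (log2 -0.79, adjusted p = 7.61e-05), Clock, at -0.73 ± 0.11 (adjusted p = 0.000115), and Per1, at -0.60 ± 0.08 (adjusted p = 4.18e-05). Bmal1 followed at -0.54 ± 0.07 (adjusted p = 2.47e-05), Cry1 at -0.53 ± 0.06 (adjusted p = 1.92e-05) and Cry2 at -0.25 ± 0.06 (adjusted p = 0.00525). Transcripts of both dimer genes, both cryptochromes and a pair of the period genes were thus below the NC level. With each library's length trend against the mean of all 9 libraries taken out, Clock was at -0.38, Per1 at -0.31, Per2 at -0.56 and Cry1 at -0.55. All were still called, and the order among them depends on that correction. Dbp rose by 0.85 ± 0.11 (adjusted p = 3.43e-05) and Nr1d1 by 0.35 ± 0.09 (adjusted p = 0.00631). Per3, at 0.07 ± 0.15 (adjusted p = 0.744), and Nr1d2, at 0.08 ± 0.10 (adjusted p = 0.521), were not called, and both turned slightly negative without BNPMT 1, to -0.13 and -0.02.

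Counted by library, the CPM of 8 of the 10 members did not overlap between SEN and NC, of 9 between BNPMT and SEN and of 8 between BNPMT and NC. Over all tested genes the groups did not overlap for 83.4%, 82.5% and 61.7%, so the members' shares in the first and second comparisons lie near the background. Within BNPMT, library 1 was the highest of its group for 7 members and library 2 the lowest for 7. The Spearman correlation between a library's deviation from its group mean and transcript length was taken across the 14956 tested genes. It was 0.51 in BNPMT 1, -0.43 in BNPMT 2 and -0.42 in SEN 1, and between -0.32 and 0.26 in the other libraries. These correlations are over genes that share the library, and carry no test. A length correction took out each library's length trend against the mean of all 9 libraries, not of its group. It therefore also takes out differences between groups in that trend and in level. With it, Per1 moved to -0.05 in SEN against NC (adjusted p = 0.427) and to -0.26 in BNPMT against SEN. Clock, the longest transcript, moved to 0.31 in SEN against NC and to -0.69 in BNPMT against SEN.

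Levels of different genes were set side by side per transcript length, as FPKM. In NC the order ran from Cry2 at 11.3 ± 0.19 FPKM (SD, n = 3) over Cry1 at 8.36 ± 0.312, Dbp at 7.02 ± 0.281, Bmal1 at 6.29 ± 0.316 and Per1 at 4.86 ± 0.215. Below them came Nr1d2 at 4.29 ± 0.344, Nr1d1 at 3.94 ± 0.0742, Clock at 3.59 ± 0.0925, Per2 at 1.81 ± 0.192 and Per3 at 0.848 ± 0.0671. Only the Nr1d2 and Nr1d1 libraries overlapped as neighbours in this order. In SEN the order was headed by Nr1d2 at 19.2 ± 1.89 FPKM and Cry1 at 17.1 ± 0.473, then Nr1d1 at 10.2 ± 0.679 and Bmal1 at 9.87 ± 0.386, which overlapped. Dbp followed at 7.97 ± 1.34, Cry2 at 6.51 ± 0.445, Clock at 4.05 ± 0.464 and Per1 at 4.04 ± 0.224, the last pair overlapping, with Per2 at 2.76 ± 0.0847 and Per3 at 1.23 ± 0.139. Cry2 thus stood first in NC and in the sixth place in SEN, and Nr1d2 moved from the sixth place to the first.

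In BNPMT Dbp stood first at 13.1 ± 0.689 FPKM, followed by Cry2 at 9.86 ± 0.353 and Cry1 at 6.01 ± 0.063. Nr1d1 at 5.19 ± 0.545, Nr1d2 at 4.70 ± 0.578 and Bmal1 at 4.48 ± 0.197 overlapped as neighbours. Per1 at 3.31 ± 0.383 and Clock at 2.23 ± 0.412 came next, and Per2 at 1.08 ± 0.172 overlapped Per3 at 0.916 ± 0.208. In all 3 groups Per2 and Per3 closed the order.

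**Figure D3:**
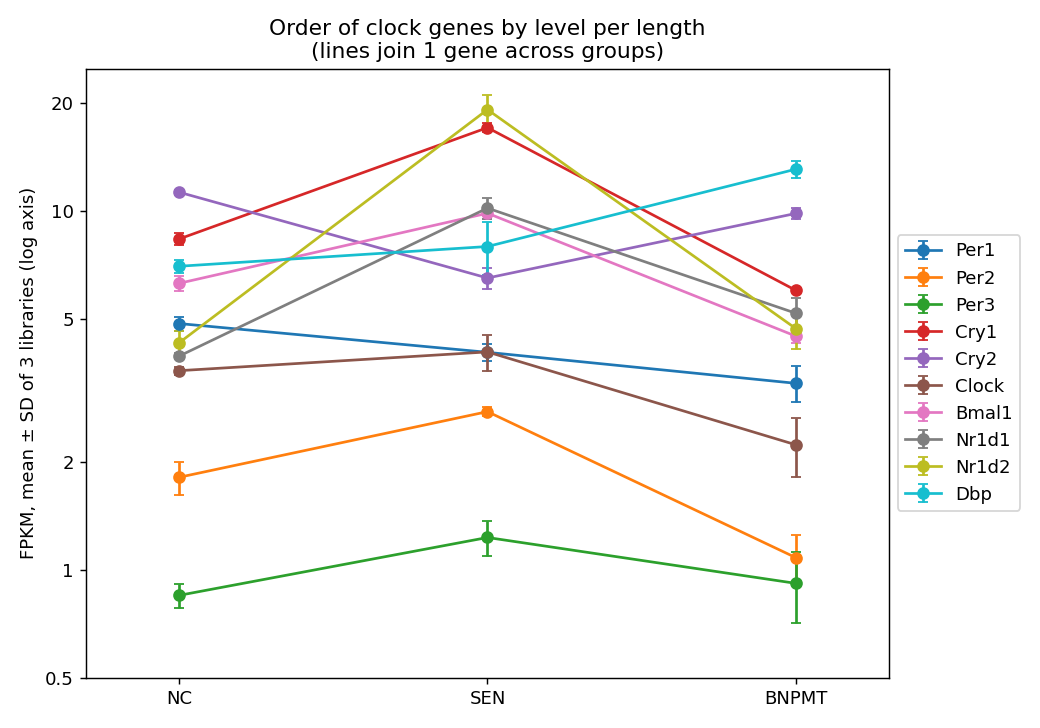
Level per transcript length of the 10 clock genes in FPKM (vertical log axis) in NC, SEN and BNPMT; points and bars are the mean and SD of 3 libraries, and lines join the same gene. Nr1d2 passes from 4.29 in NC to 19.2 in SEN and 4.70 in BNPMT, while Cry2 passes from 11.3 to 6.51 and 9.86.

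Ratios of 2 related genes within a library do not depend on the scaling. The 4 pairs were chosen after the levels had been seen and are a description with 3 libraries against 3, for which an exact two-sided permutation test cannot give a p below 0.1. Cry1 had 0.564, 0.528 and 0.543 counts per count of Cry2 in NC, 2.10, 1.98 and 1.75 in SEN, against 0.447, 0.436 and 0.466 in BNPMT. Cry2 was the more counted cryptochrome in every NC and BNPMT library, and Cry1 in every SEN library. The mean log2 ratio differed by 1.83 in SEN against NC, by -2.11 in BNPMT against SEN and by -0.28 in BNPMT against NC (exact permutation p = 0.1 each, 0.15 adjusted over 12 comparisons).

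Nr1d2 had 1.58, 1.87 and 1.89 counts per count of Nr1d1 in NC, 2.91, 3.70 and 2.70 in SEN, against 1.74, 1.22 and 1.52 in BNPMT. SEN lay above both other groups, which overlapped. The log2 ratio differed by 0.79 in SEN against NC and by -1.06 in BNPMT against SEN (exact permutation p = 0.1 each). Per2 had 0.308, 0.268 and 0.297 counts per count of Per1 in NC, 0.564, 0.5 and 0.540 in SEN, against 0.269, 0.249 and 0.245 in BNPMT. Again SEN stood apart, with log2 differences of 0.88 and -1.07 (exact permutation p = 0.1 each), so Per2 rose relative to Per1 whichever scale was used. Bmal1 had 0.750, 0.738 and 0.689 counts per count of Clock in NC, 1.14, 0.901 and 1.01 in SEN, against 0.731, 0.974 and 0.832 in BNPMT. SEN lay above NC by 0.48 on the log2 scale (exact permutation p = 0.1), and BNPMT overlapped both groups.

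**Figure D4:**
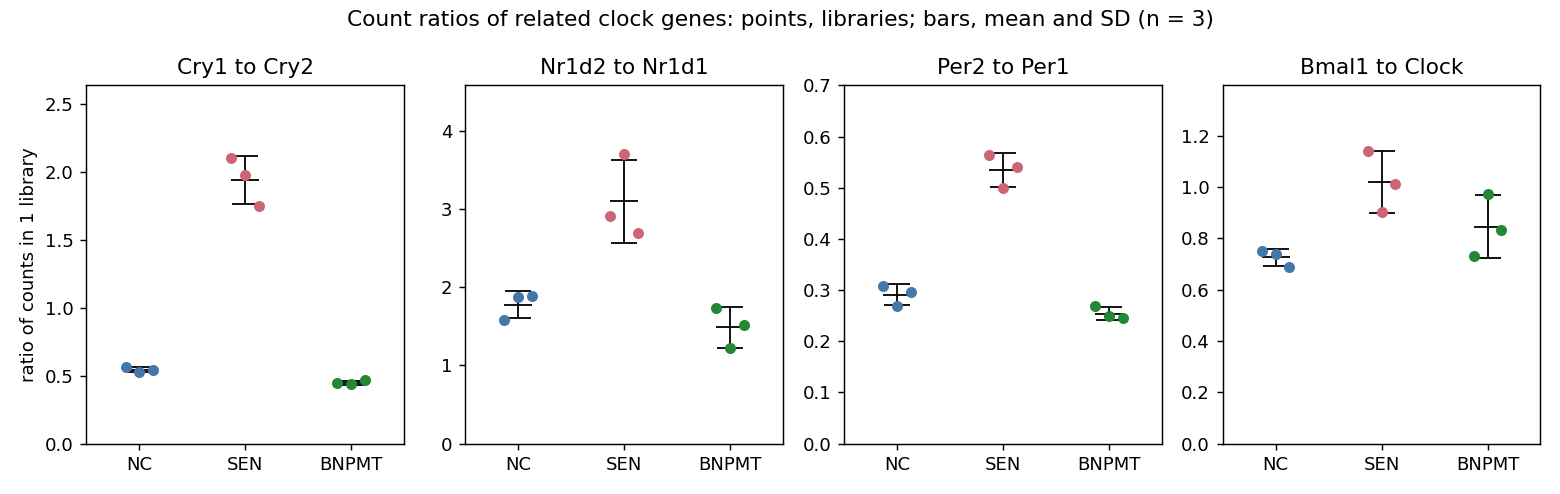
Ratio of the counts of 2 related clock genes in the same library (vertical axes, from 0, no unit) by group; points are libraries and bars give the mean and SD of 3 libraries. The Cry1 to Cry2 ratio is 1.75 to 2.10 in SEN and below 0.6 in every NC and BNPMT library.

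The loop that joins REV-ERB and ROR receptors was followed in the other genes of its list. Rora, an activator of Bmal1, was at 13.5 ± 0.745 CPM (SD, n = 3) in NC, 65.6 ± 4.43 in SEN and 10.6 ± 1.39 in BNPMT. It rose by 2.73 ± 0.09 on the log2 scale in SEN against NC (adjusted p = 4.98e-12) and fell by 3.12 ± 0.09 in BNPMT against SEN (adjusted p = 1.41e-12), with 2.28 and -2.62 on the total-count scale. Rorb was at 1.23 ± 0.462, 10.2 ± 0.863 and 0.789 ± 0.323 CPM in the same order, with log2 changes of 3.52 ± 0.25 and -4.17 ± 0.26 (adjusted p = 1.38e-08 and 3.59e-09), and 3.07 and -3.67 on the total-count scale. All 4 tested REV-ERB and ROR genes, repressors and activators alike, rose in SEN and fell in BNPMT against SEN on both scales. They include the members Nr1d1 and Nr1d2. Of all tested genes 37.6% rose in SEN against NC and 39.9% fell in BNPMT against SEN. On the total-count scale these shares were 24.5% and 25.8%.

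Among the other activators, the Bmal1 paralogue Bmal2 went the opposite way, with 3.46 ± 0.22 CPM in NC, 0.787 ± 0.24 in SEN and 6.07 ± 0.847 in BNPMT. Its log2 change was -1.66 ± 0.21 in SEN against NC (adjusted p = 7.13e-06) and 2.42 ± 0.20 in BNPMT against SEN (adjusted p = 8.74e-08), with -2.11 and 2.93 on the total-count scale. Npas2, which can stand in for Clock, was at 13.4 ± 1.53, 13.7 ± 2.01 and 12.9 ± 1.75 CPM. Its 0.49 ± 0.13 in SEN against NC (adjusted p = 0.00288) was 0.04 on the total-count scale. The -0.59 ± 0.13 of Npas2 in BNPMT against SEN (adjusted p = 0.000687) was -0.08 on the total-count scale and not called there (adjusted p = 0.56). Of the other repressors, Ciart, an inhibitor of the dimer, was at 2.60 ± 0.21 CPM in NC, 12.1 ± 0.446 in SEN and 1.95 ± 0.123 in BNPMT. Ciart rose by 2.67 ± 0.11 in SEN (adjusted p = 8.15e-11) and fell by 3.14 ± 0.12 with BNPMT (adjusted p = 1.96e-11), with 2.22 and -2.64 on the total-count scale. The E-box competitors Bhlhe40 and Bhlhe41 parted: Bhlhe40 rose by 1.02 ± 0.07 in SEN (adjusted p = 1.53e-08) and Bhlhe41 fell by 1.42 ± 0.12 (adjusted p = 1.38e-07). With BNPMT the Bhlhe40 change against SEN was -0.73 ± 0.07 (adjusted p = 3.56e-07) and that of Bhlhe41 was 1.39 ± 0.12 (adjusted p = 1.49e-07). On the total-count scale Bhlhe40 gave 0.56 and -0.23, and Bhlhe41 gave -1.88 and 1.89, all called.

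The list of Dbp holds its relatives and their competitor. Tef, a PAR bZIP factor like Dbp, was at 22.8 ± 1.34 CPM in NC, 30.4 ± 1.43 in SEN and 30.1 ± 1.08 in BNPMT. Its log2 change was 0.87 ± 0.07 in SEN against NC (adjusted p = 6.66e-08; 0.41 on the total-count scale) and -0.52 ± 0.07 in BNPMT against SEN (adjusted p = 9.87e-06), the latter -0.01 on the total-count scale. Hlf, at 0.216 ± 0.0896, 1.06 ± 0.417 and 0.18 ± 0.116 CPM, rose by 2.75 ± 0.46 in SEN (adjusted p = 9.54e-05) and fell by 3.02 ± 0.47 with BNPMT (adjusted p = 4.3e-05), with 2.3 and -2.52 on the total-count scale. Nfil3, which represses through the same D-box, was at 50.8 ± 0.336, 39.1 ± 0.125 and 44.3 ± 2.21 CPM. Its 0.07 ± 0.06 in SEN against NC was not called (adjusted p = 0.269) and was -0.38 on the total-count scale. In BNPMT against SEN its direction turned with the scaling. Nfil3 was at -0.32 ± 0.06 (adjusted p = 2e-04) on the TMM scale and at 0.18 (adjusted p = 0.01) on the total-count scale. In BNPMT against NC Dbp rose by 0.85 ± 0.11 and Tef by 0.35 ± 0.07 (adjusted p = 0.000917), and Nfil3 fell by 0.25 ± 0.06 (adjusted p = 0.00318).

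Outside the members, 64 genes of 9 lists around the clock were in the table and 61 were tested. In SEN against NC 32 rose, 18 fell and 11 were not called, with a median log2 change of 0.34. On the total-count scale 25 rose and 27 fell, with a median of -0.11. In BNPMT against SEN 16 rose and 37 fell (median -0.52), and 25 rose and 24 fell on the total-count scale (median -0.01). In BNPMT against NC 14 rose and 28 fell (median -0.13), and 15 rose and 24 fell on the total-count scale. The balance of the wider set in the first and second comparisons thus turns with the scaling. For reading these counts and those of the single lists, of all tested genes 37.6% rose and 38.5% fell in SEN against NC, and 40.7% rose and 39.9% fell in BNPMT against SEN. On the total-count scale 24.5% rose and 56.9% fell in the first, and 57.3% rose and 25.8% fell in the second. In BNPMT against NC 26.3% of all tested genes rose and 26.5% fell, and 30.2% rose and 22.5% fell on the total-count scale. The other 3 genes were not tested for want of counts.

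**Figure D5:**
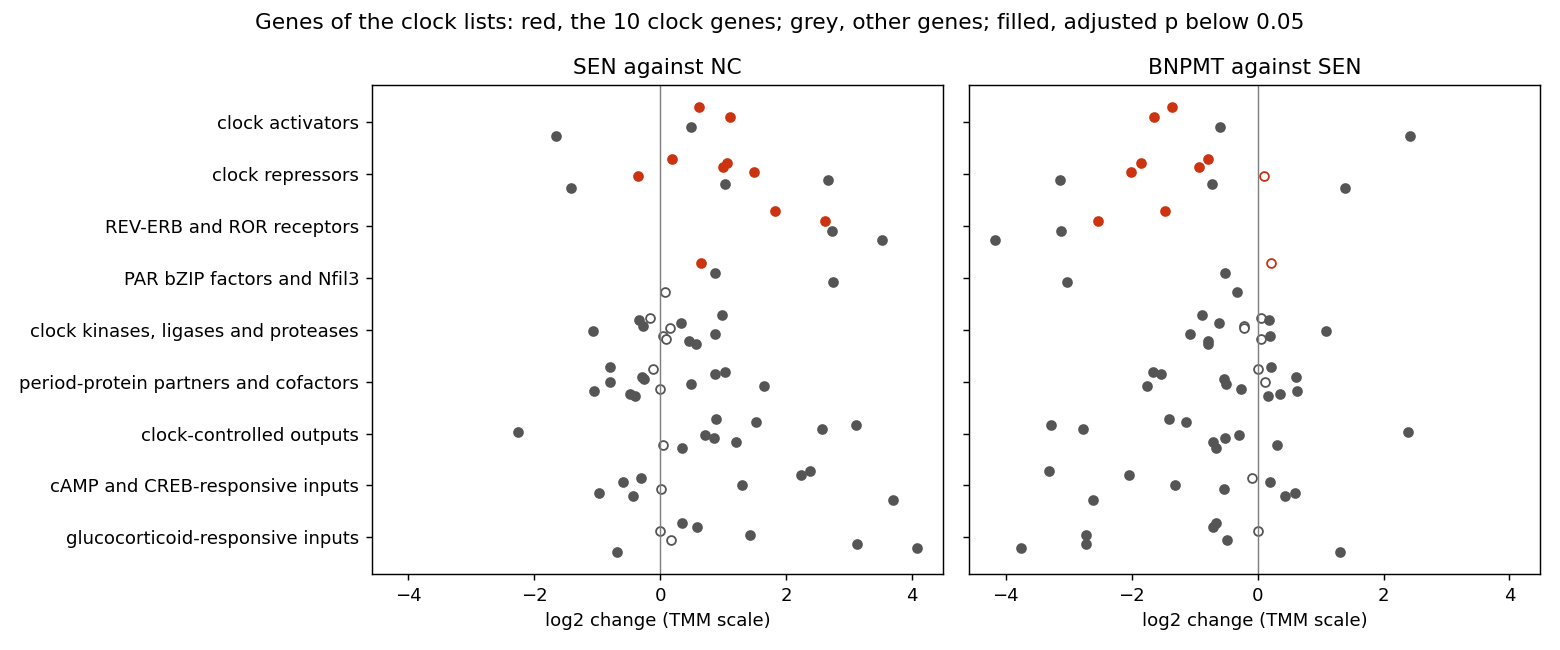
Log2 change on the TMM scale (horizontal axes) of the tested genes of the 9 clock lists, in SEN against NC and BNPMT against SEN; red circles are the 10 clock genes, grey circles other genes, and filled circles passed an adjusted p of 0.05. The 4 REV-ERB and ROR genes lie right of 0 in the first panel and left of 0 in the second, whereas the cofactors lie on both sides; 1 red circle right of 0 in the first panel, Per1, lies left of 0 on the total-count scale.

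Kinases, ligases and proteases set the stability of PER and CRY proteins. Of 12 tested, 5 rose, 3 fell and 4 were not called in SEN against NC, and 2 rose and 5 fell on the total-count scale. In BNPMT against SEN 3 rose and 5 fell, and 5 rose and 3 fell on the total-count scale, so the balance of this list turns with the scaling. Csnk1d, which encodes a casein kinase of PER proteins, went from 175 ± 1.38 CPM in NC to 253 ± 13.4 in SEN and 193 ± 7.32 in BNPMT (log2 0.98 ± 0.05, then -0.89 ± 0.05, adjusted p = 1.43e-09 and 3.15e-09; 0.53 and -0.39 on the total-count scale). Btrc and Fbxw11, paralogous ligase subunits that target PER, moved oppositely. Btrc fell by 1.07 ± 0.07 in SEN (adjusted p = 6.03e-09) and Fbxw11 rose by 0.87 ± 0.06 (adjusted p = 6.1e-09). BNPMT against SEN gave 1.08 ± 0.07 for Btrc (adjusted p = 4.56e-09) and -1.08 ± 0.06 for Fbxw11 (adjusted p = 5.63e-10). The total-count values were -1.52 and 1.59 for Btrc and 0.41 and -0.57 for Fbxw11.

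Of 13 partners and cofactors, 4 rose, 7 fell and 2 were not called in SEN against NC, and 3 rose and 9 fell on the total-count scale. Sfpq, an RNA-binding partner of PER complexes, rose by 1.65 ± 0.05 (adjusted p = 1.44e-12; 1.20 on the total-count scale), and the coactivator Crebbp rose by 1.02 ± 0.07 (adjusted p = 1.02e-08; 0.57). Timeless fell by 0.80 ± 0.07 (adjusted p = 9.92e-08; -1.25). In BNPMT against SEN 5 of these genes rose and 6 fell, and 8 rose and 3 fell on the total-count scale, so this balance turns as well. Hdac3, the deacetylase recruited by REV-ERB, rose by 0.61 ± 0.06 (adjusted p = 6.81e-07; 1.11 on the total-count scale), and Sfpq fell by 1.75 ± 0.05 (adjusted p = 7.27e-13; -1.25).

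Of 10 tested clock-controlled outputs, 8 rose, 1 fell and 1 was not called in SEN against NC, and 7 rose and 2 fell on the total-count scale. Klf10 rose by 2.57 ± 0.06 (adjusted p = 3.42e-13), Sirt1, a deacetylase of BMAL1 and PER2, by 3.10 ± 0.10 (adjusted p = 4.13e-12) and Nampt, the enzyme of NAD salvage, by 1.52 ± 0.07 (adjusted p = 1.13e-10). Klf15 fell by 2.26 ± 0.13 (adjusted p = 2.14e-09). The total-count values were 2.12 for Klf10, 2.65 for Sirt1, 1.07 for Nampt and -2.71 for Klf15. With BNPMT 8 fell and 2 rose against SEN, and 5 fell and 3 rose on the total-count scale. Those that fell included Klf10, at -2.78 ± 0.06 (adjusted p = 1.68e-13), Sirt1, at -3.28 ± 0.10 (adjusted p = 2.33e-12), and Nampt, at -1.14 ± 0.07 (adjusted p = 1.72e-09). On the total-count scale they were at -2.28, -2.77 and -0.64. Klf15 rose in BNPMT against SEN by 2.39 ± 0.13 (adjusted p = 9.36e-10, 2.90 on the total-count scale).

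Genes that respond to or carry the signals known to induce Per1 were mixed. Of 9 genes of the cAMP and CREB list, 4 rose, 4 fell and 1 was not called in SEN against NC, and 4 rose and 5 fell on the total-count scale. Crem, at 2.23 ± 0.10 (adjusted p = 1.93e-10), and Rasd1, at 3.70 ± 0.13 (adjusted p = 1.65e-11), were among those that rose (1.78 and 3.24 on the total-count scale). Those that fell were Pde4d, at -0.97 ± 0.08 (adjusted p = 4.78e-08), Crtc1, at -0.60 ± 0.07 (adjusted p = 5.24e-06), Pde4b, at -0.43 ± 0.08 (adjusted p = 0.000199), and Creb1, at -0.31 ± 0.08 (adjusted p = 0.00376), all further below 0 on the total-count scale. Of 8 genes of the glucocorticoid list, 5 rose, 1 fell and 2 were not called, and 3 rose and 3 fell on the total-count scale. Errfi1 rose by 4.08 ± 0.07 (adjusted p = 5.79e-15), Sgk1 by 3.12 ± 0.06 (adjusted p = 6.21e-14) and Klf9 by 1.42 ± 0.15 (adjusted p = 1.41e-06), with 3.62, 2.67 and 0.97 on the total-count scale. Hsd11b1, which activates glucocorticoids, fell by 0.69 ± 0.07 (adjusted p = 1.17e-06; -1.14 on the total-count scale). In BNPMT against SEN 5 of the 9 cAMP and CREB genes fell and 3 rose, and 4 fell and 4 rose on the total-count scale. Of the 8 glucocorticoid genes 6 fell and 1 rose there, and 4 fell and 2 rose on the total-count scale, with Errfi1 at -3.76 ± 0.06 (adjusted p = 9.05e-15; -3.26).

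The genes whose TMM-scaled log2 CPM followed each member most closely over the 9 libraries were sought among 10182 genes, by Pearson's r, which here mostly reflects the shared differences between the 3 groups and carries no test. For Nr1d2 they were Azin1 (r = 0.999), Cpeb2 and Kitlg (0.998 each), for Cry1 Vasn and Clic4 (0.999 each) and Sf1 (0.998), and for Bmal1 Timp3 and Megf6 (0.998 each) and Col6a1 (0.997). Per2 was closest to Atn1 (0.999), Zfta and Kank1 (0.997 each), Nr1d1 to Pygo2 (0.998), Nrdc and Cyth2 (0.996 each), Clock to Mon2 (0.996), Pag1 and Med14 (0.995 each), and Per1 to Camsap2 (0.996), Thsd7a and Atxn2l (0.995 each). The values of the other 3 members were lower. Dbp was closest to Rufy1 (0.985), Mfge8 (0.984) and Pgam1 (0.983), Cry2 to Rbl1 (0.982), Alms1 (0.978) and Usp42 (0.974), and Per3 to Osbp2 (0.982), Tmem45a (0.977) and Tctn1 (0.975).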

How the data were processed

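Poly(A) RNA of 9 libraries was measured, 3 each of NC, SEN and BNPMT, grouped by the sample titles. Per the submitters' processing notes, the tools were HISAT2, fastp and HTSeq and the build was mRatBN7.2; roles, versions, annotation and strand setting were not given in the sources used here. The authors deposited raw counts per gene and FPKM, and every deposited FPKM is the count divided by gene length and by the library's total (largest relative difference 6.04e-16). No 2 libraries were duplicates.

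Genes were kept with edgeR's filterByExpr, leaving 14956. Tests used edgeR 4.0.16 (R 4.3.3), its quasi-likelihood F test over the 9 libraries, with TMM factors, 3 groups and no block, Benjamini-Hochberg adjustment over all tested genes and a threshold of 0.05. The script was tested on simulated data. Replicate numbers were compared across groups by the correlation over genes of the libraries' deviations from their group means. It was r = -0.24 to 0.06 for same-numbered libraries and -0.08 to 0.16 for the others. Deviations from means of 3 libraries cannot exclude a pairing, and the main fit used none.

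The members and the lists were chosen with earlier results of these data known. The text names all 10 members and, from the other lists, up to 3 genes with the smallest adjusted p in each direction, plus every other activator, repressor, REV-ERB or ROR receptor and PAR bZIP factor; it gives the 3 closest patterns per member among genes with a mean of at least 5 CPM. A few genes that this rule names are not reported here. Creb1, Pax1, Lum, Pecam1 and Tek were named after their values were seen. The 4 ratio pairs were also chosen after the values were seen. Alternatives were total counts or DESeq2 1.42.0 size factors, the DESeq2 test, 2 other filters, 2 groups only, a replicate block, limma 3.58.1 on log2(FPKM + 1) and log2(FPKM + 0.1), a length correction and leaving libraries out. Promoter sequences are RefSeq's for GRCr8, not the build of the counts.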

Additional observations from a re-analysis of the deposited data

How the results depend on the processing

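Each of the 30 changes (10 genes, 3 comparisons) was refitted under 20 alternatives. Of 600 values, 565 kept direction and side of the threshold, 13 lost the call, 13 gained it and 9 turned sign or reached 0; 23 changes held throughout. Per1 in SEN against NC turned to -0.27 with total counts, -0.22 on log2(FPKM + 1), -0.26 on log2(FPKM + 0.1) and -0.05 with the length correction. It was 0.19 with the replicate block (adjusted p = 0.0631) and 0.13 with no filter on low counts (adjusted p = 0.181), the range of adjusted p over its alternatives being 0.00285 to 0.427. With the replicate block 8 members rose and 1 fell in SEN against NC, and it changed no other call of a member. In BNPMT against NC, Per3 was -0.13 and Nr1d2 -0.02 with SEN 1 and BNPMT 1 left out together. Leaving out 1 library at a time gave -0.13 to 0.17 for Per3 and -0.02 to 0.12 for Nr1d2.

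The number of members lower in SEN against NC was 2 with total counts and with both FPKM scales. The calls of Clock and Dbp there were lost (adjusted p up to 0.27 and 0.156). These scales carry no composition factor. The FPKM fits also used another test, and the cause of the lost calls was not tested. The number higher in BNPMT against SEN was 2 with total counts, both FPKM scales and the length correction, 1 with no filter on low counts, 1 with SEN 1 and BNPMT 1 left out together, and 0 to 1 with 1 library left out. Cry2 (0.32) and Dbp (0.26) were called there with the length correction, as was Nr1d2 in BNPMT against NC (0.21, adjusted p = 0.0469); the cause was not tested. Among all genes, the split of higher to lower calls with the length correction was 4693 to 7425 in SEN against NC and 7495 to 4906 in BNPMT against SEN. No ratio between members changed direction with any 1 library left out. Depth limited none of the members; 3 libraries a group limit the precision.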
